A study of Mus musculus with 8 samples.

Results

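The Prader-Willi region is an imprinted stretch of mouse chromosome 7 that runs from Ube3a to Peg12. Its 7 genes examined here, Ndn, Magel2, Mkrn3, Peg12, Snrpn, Snurf and Ube3a, were taken by symbol from a deposited count table of 23336 gene rows, and all 7 have a row. Gene expression was measured by RNA sequencing after depletion of ribosomal RNA in 8 samples of skeletal muscle. They came from mice of the C57BL/6 strain, all labelled female, at postnatal day 2. Samples of the mutant group (n = 4) are from mice that carry ΔDMR1-U2. This is known as a deletion at the imprinted Igf2 locus, far from this region on the same chromosome. The other group is wild-type (n = 4). The 2 groups share strain, age, tissue and labelled sex. In each group the libraries are named 1A, 1B, 2 and 3, and p-values measure the spread between them. The labels do not give the parent that passed on the deletion or the meaning of these names, and counts from a single strain do not separate the maternal from the paternal allele.

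In an imprinted domain, marks set in the germ line keep 1 parental copy of a gene silent. Ndn, Magel2, Mkrn3, Peg12 and the Snurf-Snrpn transcript are known to be read from the paternal chromosome only, under an imprinting centre at the Snurf-Snrpn start. In humans, loss of the paternal copy of the matching region causes Prader-Willi syndrome, in which weak muscle tone of the newborn is a leading sign. Which of these mouse genes the human region holds was not examined here. Ube3a is read from the maternal copy in neurons, where the long antisense transcript Snhg14 silences the paternal copy, and from both copies in most other tissues. Loss of maternal UBE3A causes Angelman syndrome.

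In the mm10 build and the GENCODE vM21 annotation, the 7 genes span 3.24 Mb of chromosome 7, from 59228750 to 62464510. Ube3a lies at 59228750 to 59311536 on the plus strand. Snrpn, at 59982495 to 60140219, and Snurf, at 59995449 to 60005049, lie on the minus strand. Ndn, at 62346569 to 62350262, and Magel2, at 62377010 to 62381640, lie on the plus strand. Mkrn3, at 62417593 to 62420139, and Peg12, at 62461871 to 62464510, lie on the minus strand. These last 4 genes have 1 exon each and sit within 118 kb of each other, with gaps of 26.7 kb between Ndn and Magel2, 36.0 kb between Magel2 and Mkrn3, and 41.7 kb between Mkrn3 and Peg12.

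The 250 bases before the RefSeq start of Magel2, Mkrn3 and Peg12 are printed here because these neighbours share a parental allele while Peg12 stood apart in its counts. They are from RefSeq (GRCm38.p6, the same assembly as mm10), run 5′ to 3′ in the direction of the gene and end at the base before its start: chr7:62376729-62376978 on the plus strand for Magel2, chr7:62420154-62420403 on the minus strand for Mkrn3 and chr7:62464511-62464760 on the minus strand for Peg12. Capitals mark matches to motifs that were chosen after reading the sequences and searched on both strands. The GC box was GGGCGGG, the ETS core was CCGGAAGT, and a motif with letters of the CTCF type was CC, any 4 bases and GGTGGC. The core of the NRF1 motif was searched as GCATGCG and that of YY1 as AAGATGGCG.
Magel2: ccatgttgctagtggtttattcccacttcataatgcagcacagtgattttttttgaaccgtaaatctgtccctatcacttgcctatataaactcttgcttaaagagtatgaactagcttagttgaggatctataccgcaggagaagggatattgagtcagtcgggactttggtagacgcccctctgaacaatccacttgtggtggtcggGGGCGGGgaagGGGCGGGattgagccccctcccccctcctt
Mkrn3: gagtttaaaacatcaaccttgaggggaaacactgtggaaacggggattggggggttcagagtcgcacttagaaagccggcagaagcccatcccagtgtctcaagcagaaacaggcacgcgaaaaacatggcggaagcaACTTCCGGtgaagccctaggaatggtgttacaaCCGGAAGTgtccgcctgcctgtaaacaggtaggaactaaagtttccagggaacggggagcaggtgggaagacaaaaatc
Peg12: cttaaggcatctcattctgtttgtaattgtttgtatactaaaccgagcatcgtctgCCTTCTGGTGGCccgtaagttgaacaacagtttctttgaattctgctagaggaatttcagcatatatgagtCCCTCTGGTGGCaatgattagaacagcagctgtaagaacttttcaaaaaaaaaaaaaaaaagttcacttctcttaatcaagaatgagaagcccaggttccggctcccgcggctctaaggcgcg
The sequences differed in what they held. The Magel2 sequence had the GC box at 2 places, and 23.4% of 32817 RefSeq windows of this length had it at 1 or more. That of Mkrn3 had the ETS core at 2 places, 1 on each strand, against 2.88% of windows with any match. That of Peg12 had the CTCF-type letters at 2 places, against 1.95% of windows with any match. The Ndn window, which is not printed because the GENCODE exon covers it, had the NRF1 core as 1 overlapping match on both strands, against 3.01% of windows. The Ube3a window had the YY1 core, as did 0.603% of windows, and a GC box. These are matches of letters and show no binding. Of the 4 clustered genes, Peg12 had the highest ratio of observed to expected CpG in its window, at 0.726, against 0.613 for Mkrn3, 0.471 for Magel2, 0.411 for Ndn and a median of 0.373 over all windows. The Ube3a window stood above these, at 0.813.

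Of these 7 genes, none was called different between mutant and wild-type muscle, 5 were tested and 2 had no counts. A gene was called where its adjusted p was under 0.05 in the quasi-likelihood test of edgeR, adjusted after Benjamini and Hochberg over 15241 genes, of which 1.13% were called. At an unadjusted p under 0.05, 1 of the 5 passed, Peg12, which was lower in the mutant, against 21.3% of all tested genes in either direction and 10.9% lower. The median log2 fold change, mutant over wild-type, was -0.02 for the 5 and -0.0010 for all tested genes. DESeq2 called 1 of the 5, again Peg12, against 6.01% of the 15482 genes to which it gave an adjusted p, 2.78% higher and 3.23% lower.

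Libraries held 16084413 to 26913636 counts. Levels are given as CPM, counts scaled to a common library size. Xist, which coats the inactive X chromosome, had 2.50 CPM in mutant library 1A and 1270 to 1895 CPM in the other 7, although all are labelled female, and mutant library 1B lay at the end of the first principal component. Igf2as, the transcript antisense to Igf2, had 5.55 to 6.18 CPM in the 4 mutant libraries and 54.4 to 72.2 CPM in the 4 wild-type ones. Of the markers of skeletal muscle, 14 of 14 passed the filter, with a summed level of 164172 to 184841 CPM in mutant and 180387 to 212441 CPM in wild-type libraries. Of these, 7 were lower and 1 higher at an unadjusted p under 0.05, against 10.9% of all tested genes lower and 21.3% in either direction. None of the 14 was called by edgeR, and DESeq2 called 4 lower, against 3.23% of all its genes.

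Peg12, also called Frat3, encodes a protein of the FRAT family, which binds the kinase GSK3 and favours beta-catenin signalling. Its counts were 211, 171, 218 and 227 in the mutant (1A, 1B, 2 and 3), or 10.8, 9.12, 13.01 and 11.2 CPM. Wild-type counts were 281, 439, 393 and 336 in the same order, or 18.2, 16.8, 14.7 and 14.3 CPM. The 4 mutant values lay below the 4 wild-type values, with library 1B lowest, and 12.8% of all genes tested had groups that did not overlap, 6.38% with the mutant lower and 6.4% with it higher. The means were 11.03 ± 1.596 CPM in the mutant against 16.0 ± 1.86 CPM in wild-type (n = 4 each, SD).

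On the log2 scale Peg12 differed by -0.53, SE 0.12, mutant over wild-type, with a 95% confidence interval of -0.80 to -0.27. The unadjusted p was 0.00104 and the adjusted p was 0.0584 (edgeR), short of the threshold. DESeq2 gave -0.54 with an adjusted p of 0.00437, and edgeR passed the threshold without the filter on low counts (adjusted p = 0.0499) and without mutant library 2 (adjusted p = 0.0298). The authors' deposited table lists Peg12 at 1.45 times the mutant level in wild-type, with an adjusted p of 0.0700. Without mutant library 1A it was -0.52 (adjusted p = 0.0893, edgeR), and without 1B -0.45 (adjusted p = 0.0883, edgeR). Without both, the log2 fold change was -0.40 (adjusted p = 0.231, edgeR).

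**Figure D1:**
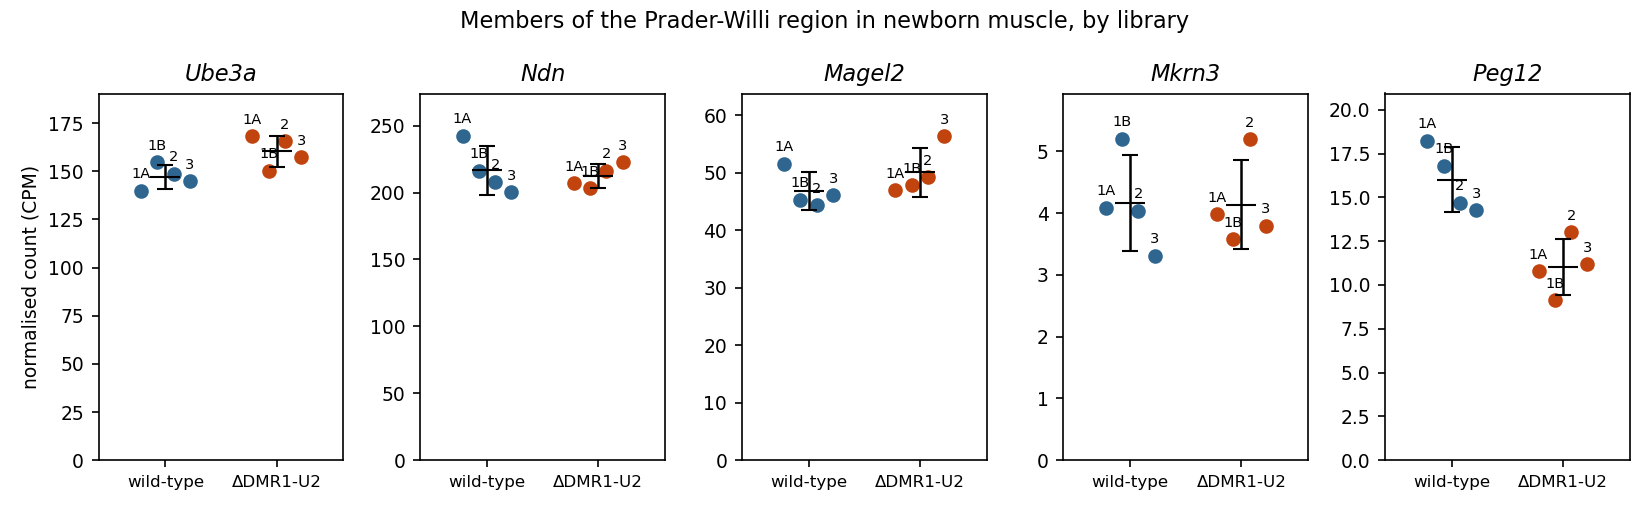
Normalised counts (CPM) of the 5 members with counts, in each library of wild-type (blue) and ΔDMR1-U2 (orange) muscle, with the library name above each point and the group mean and SD in black. The groups do not overlap for Peg12 (9.12 to 13.01 against 14.3 to 18.2 CPM) and overlap for the other 4.

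**Figure D2:**
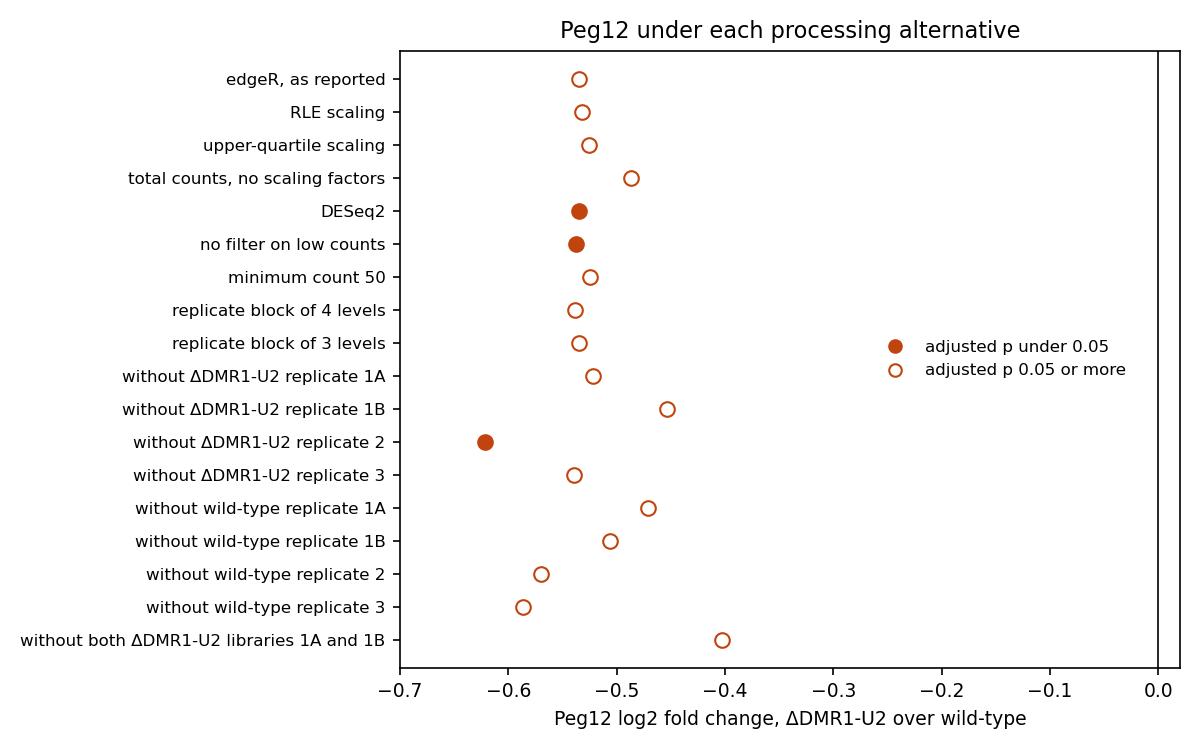
The log2 fold change of Peg12 under the reported test and each of 17 alternatives, with filled points where the adjusted p was under 0.05. The values lay between -0.62 and -0.40, and 3 of the 17 alternatives passed the threshold.

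Markers of other cell types were read in the same libraries. Schwann cell markers, the genes of myelinating nerve sheath cells, had 8 of 8 genes past the filter, of which edgeR called 0. At an unadjusted p under 0.05, 6 were higher and 0 lower, against 21.3% of all tested genes in either direction. DESeq2 called 2 higher, against 2.78% of all its genes. The summed level of the Schwann cell markers was 327 to 424 CPM in the mutant against 228 to 316 CPM in wild-type, without overlap. White adipocyte markers, of which 7 of 8 passed the filter, summed to 930 to 1275 CPM against 848 to 1025 CPM. Car3 made up most of this sum, at 639 to 998 CPM. The median log2 fold change of the tested white adipocyte markers was 0.72, and neither edgeR nor DESeq2 called any of them. Summed markers of satellite cells and myoblasts, the muscle progenitors, overlapped at 359 to 405 against 353 to 462 CPM. Brown adipocyte markers, of which 5 of 6 passed the filter, summed to 81.3 to 126 CPM in mutant and 85.6 to 95.9 CPM in wild-type libraries. Cox8b and Ppargc1a made up most of this sum, at 33.7 to 45.6 and 27.3 to 54.8 CPM, and Ucp1 had 0 to 3 counts. This list held the 1 marker gene that edgeR called, Cidea, a lipid droplet protein, named after its values were seen, with a log2 fold change of 1.07 (adjusted p = 0.0301, edgeR). That call was lost without mutant library 3, without any 1 wild-type library (adjusted p up to 0.108) and without mutant libraries 1A and 1B together (0.0529). Lists of fibroblast, endothelial, mural cell, macrophage and red cell markers had 8, 6, 6, 5 and 3 genes past the filter. Of these, edgeR called 0. At an unadjusted p under 0.05, the lists had 1, 2, 0, 0 and 0 genes higher and 1, 1, 0, 2 and 0 lower, in that order. Of all tested genes, 21.3% passed this in either direction. DESeq2 called 1 endothelial marker, lower, against 3.23% of all its genes. The part of these cell types in the Peg12 values was not tested. In such bulk tissue, fewer cells that express a gene and less RNA per cell cannot be told apart.

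Ndn encodes necdin, a MAGE family protein that restrains growth and favours differentiation of neurons and muscle progenitors. Its counts were 4054, 3810, 3626 and 4515 in the mutant (1A, 1B, 2 and 3), or 207, 203, 216 and 223 CPM. Wild-type libraries had 3737, 5655, 5560 and 4713 counts, or 242, 216, 208 and 200 CPM. The groups overlapped, with wild-type library 1A highest and wild-type library 3 lowest of all 8. The log2 difference, mutant over wild-type, was -0.03 (SE 0.07) with a 95% confidence interval of -0.19 to 0.13 (adjusted p = 0.848, edgeR), so a change beyond 0.19 in either direction lay outside the interval. Its sign turned without wild-type library 1A, at 0.03.

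Magel2 encodes another MAGE protein, which with the ligase TRIM27 and the protease USP7 regulates the WASH complex of endosomes. It had 919, 896, 825 and 1142 counts in mutant muscle, or 46.9, 47.8, 49.2 and 56.3 CPM. Wild-type libraries had 795, 1185, 1186 and 1086 counts, or 51.6, 45.3, 44.4 and 46.1 CPM. The groups overlapped, and mutant library 3 was highest. The log2 difference, mutant over wild-type, was 0.10 (SE 0.08) with a 95% confidence interval of -0.08 to 0.27 (adjusted p = 0.499, edgeR).

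Mkrn3 encodes a makorin, a RING finger ubiquitin ligase known as a brake on the onset of puberty. It was the scarcest tested member, with 78, 67, 87 and 77 counts in mutant muscle, or 3.98, 3.57, 5.19 and 3.798 CPM. Wild-type libraries had 63, 136, 108 and 78 counts, or 4.09, 5.20, 4.04 and 3.31 CPM. The groups had almost the same range. The log2 difference, mutant over wild-type, was -0.02 (SE 0.17), and its interval of -0.39 to 0.36 was the widest of the 5 tested members (adjusted p = 0.966, edgeR). A change of the size measured for Peg12 lay outside it.

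Ube3a encodes the HECT-type ubiquitin ligase of Angelman syndrome. It had 3293, 2816, 2777 and 3187 counts in mutant muscle, or 168, 150, 166 and 157 CPM. Wild-type libraries had 2154, 4045, 3979 and 3409 counts, or 140, 155, 149 and 145 CPM. The groups overlapped only between mutant library 1B and wild-type library 1B. The log2 difference, mutant over wild-type, was 0.12 (SE 0.06) with a 95% confidence interval of -0.01 to 0.26 (adjusted p = 0.272, edgeR). Its antisense partner Snhg14 stands in the table as D7Ertd715e, an older symbol, with 38 to 70 counts per library. It was at 2.76 to 3.06 CPM in the mutant against 2.42 to 2.68 CPM in wild-type. These groups did not overlap, as for 12.8% of all tested genes, 6.4% with the mutant higher. The log2 difference of D7Ertd715e was 0.22 (SE 0.13, adjusted p = 0.340, edgeR). In the annotation the exons of Ube3a overlap opposite-strand exons over 8.74% of their length, and no source used here states whether counting used strand, so reads from the overlap cannot be told apart.

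Snrpn encodes SmN, a core protein of splicing particles, and Snurf a short protein read from the same transcript. Both rows had 0 counts in all 8 libraries, a limit of 3 counts or 0.112 to 0.195 CPM per library for reads assigned to each, counting error only. A row at 0 does not show that the transcript was missing. RefSeq lists Snurf and Snrpn, both on the minus strand, with the same last base, 59982495, and Snurf spans 59982495 to 60005199 within Snrpn. In the GENCODE annotation 100% of the Snurf exons lie within exons of other genes on the same strand. Of 14 protein-coding genes in the table covered to at least 99% in this way, 7 were at 0 in all libraries, against 12.3% of 19677 genes with no such overlap. Snurf is itself among the 14 and among the 7. Snrpn is covered to 10.005% in GENCODE, and of 497 genes covered in part but under 50%, Snrpn among them, 8.45% were at 0. That was a lower share than without overlap, but overlaps in the annotation used for counting, which no source used here names, may differ. Of 64 RefSeq genes that share a start or an end with another, 10, or 15.6%, were at 0, against 12.1% of those that do not. Both Snrpn and Snurf are among the 64 and among the 10, so this share is not independent of the zeros it is set beside. No source used here states how the authors' counting treated reads that fall in 2 genes, and its part in these zeros was not tested. Snrpb, the closest relative of Snrpn, was at 78.2 ± 7.64 CPM in the mutant against 85.2 ± 8.19 CPM in wild-type (n = 4 each, SD), and reads of close relatives can be assigned to either.

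Per kb of exon, Ndn had the highest level of the 5 tested members. Averaged over the 8 libraries, the level per length was 58.1 ± 3.67 CPM per kb for Ndn, 10.5 ± 0.845 for Magel2, 7.45 ± 0.477 for Ube3a, 5.12 ± 1.18 for Peg12 and 1.63 ± 0.273 for Mkrn3 (SD over 8 libraries of both groups). The ranges of neighbours in this order did not overlap except those of Ube3a and Peg12, which met at 6.78 to 8.15 and 3.46 to 6.91 CPM per kb. The order depends on the length used. With the RefSeq length of Ndn its level per length was 130 CPM per kb, and with the longest GENCODE transcript of Ube3a that gene was at 15.6 CPM per kb, above Magel2.

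**Figure D3:**
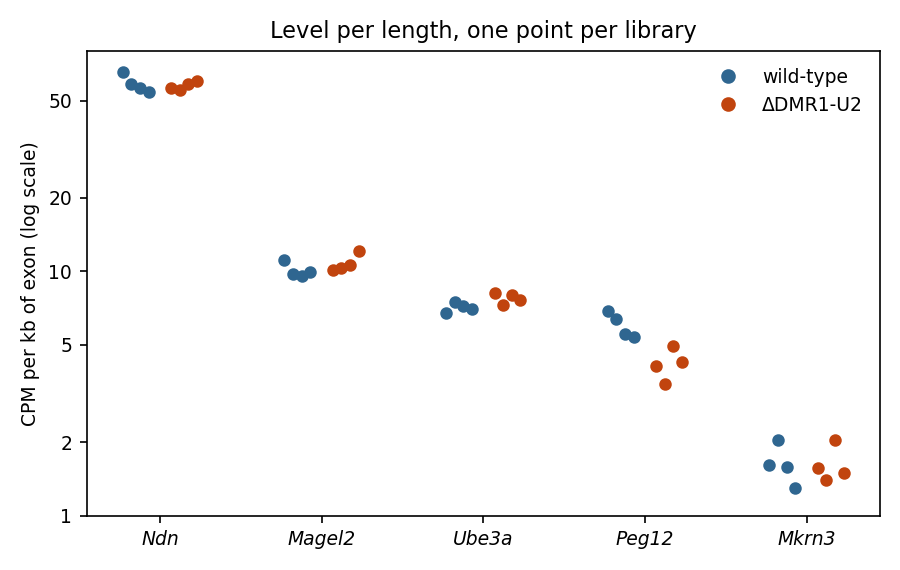
Level per length (CPM per kb of GENCODE exon, log axis) of the 5 tested members, 1 point per library, wild-type in blue and ΔDMR1-U2 in orange. Ndn lies above all other members in every library, at 54.2 to 65.6 CPM per kb, and Mkrn3 lies lowest, at 1.30 to 2.04.

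Ratios between members within a library do not depend on how libraries are scaled. Peg12 counts were 5.20%, 4.49%, 6.01% and 5.03% of Ndn counts in mutant libraries 1A, 1B, 2 and 3, and 7.52%, 7.76%, 7.07% and 7.13% in the wild-type libraries. All 4 mutant ratios lay below all 4 wild-type ratios. On the log2 scale, the ratio of Ndn to Peg12 was 4.28 ± 0.174 in the mutant against 3.76 ± 0.0642 in wild-type (SD, n = 4 each), a difference of 0.51 (two-sided exact permutation test, p = 0.0286). The ratios of Peg12 to Magel2, Mkrn3 and Ube3a did not overlap between the groups either, with differences of 0.64 and 0.54 for Magel2 and Mkrn3 over Peg12, and -0.67 for Peg12 over Ube3a. Each had the same exact permutation p of 0.0286, the smallest that 4 against 4 libraries allow. The test was chosen after the values were seen, and these ratios all use the Peg12 counts, whose groups already did not overlap. Adjusted over the 10 pairs of members, which share genes, the exact permutation p was 0.0714 for each of these 4 pairs and 0.171 to 0.80 for the 6 pairs without Peg12. Ndn over Magel2 differed by -0.12 (exact permutation p = 0.0857), and the groups overlapped. Within the summed counts of the 4 clustered genes, Peg12 held 3.97% ± 0.471 in mutant muscle and 5.63% ± 0.254 in wild-type, and Ndn held 76.5% ± 0.646 and 76.4% ± 0.396 (SD, n = 4 each).

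**Figure D4:**
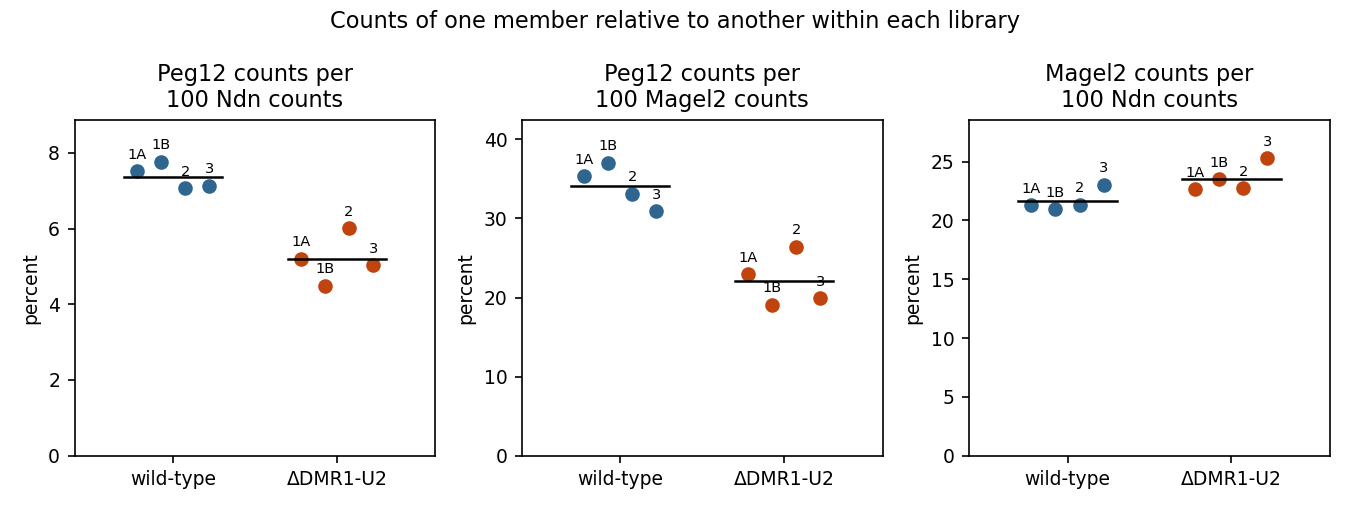
Counts of 1 member as a percentage of the counts of another in the same library, for wild-type (blue) and ΔDMR1-U2 (orange), with the library name above each point and the group mean as a line. Peg12 relative to Ndn lies at 4.49% to 6.01% in the mutant and 7.07% to 7.76% in wild-type, while Magel2 relative to Ndn overlaps between the groups.

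Across the 8 libraries the highest Pearson correlation of log2 CPM between members was that of Ndn with Magel2, with Pearson's r = 0.62 (exact permutation p = 0.101) and Spearman's rho = 0.50 (exact permutation p = 0.216), and r was 0.64 without the 2 libraries farthest from the Ndn median. Adjusted over the 10 pairs, the p values were 0.662 and 0.432. No pair of members passed by either measure.

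The genes whose pattern over the 8 libraries was most like that of each member are given with Pearson's r of log2 CPM, as a description, over all tested genes that are not members. They were Dnajc5 (r = 0.996) and 1810020D17Rik (0.991) for Peg12, Icmt (0.948) and 2310046O06Rik (0.947) for Ndn, Efnb1 (0.957) and 2310007L24Rik (0.956) for Magel2, Ahi1 (0.969) and Rpp38 (0.943) for Mkrn3, and Pklr (0.987) and Scai (0.965) for Ube3a. Pklr was scarce, at 7 to 28 counts per library. Dnajc5 is a chaperone of synaptic vesicles. The log2 fold changes of Dnajc5 and 1810020D17Rik, -0.20 and -0.48, follow in direction from their choice by likeness to Peg12.

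The neighbouring genes on the chromosome gave 24 tested genes, of which 0 were called by edgeR. At an unadjusted p under 0.05, 2 were higher and 5 lower, against 21.3% of all genes in either direction. Groups did not overlap for 4 of 24, against 12.8% of all genes. DESeq2 called 2 of them, Mtmr10 and Aldh1a3, both lower, against 3.23% of all its genes. The median log2 fold change of the list was 0.04, against -0.0010 over all genes. Between Snrpn and Ndn, 2 long noncoding RNAs on the minus strand were tested, A230057D06Rik, at 61704519 to 61928690, and A330076H08Rik, at 61930137 to 61982358. A230057D06Rik was at 6.12 to 8.22 CPM in the mutant against 6.79 to 10.1 CPM in wild-type, a log2 fold change of -0.33 (SE 0.14). A330076H08Rik was at 6.41 to 8.02 CPM against 7.35 to 10.6 CPM, a log2 fold change of -0.32 (SE 0.13). Both overlapped between the groups and neither was called (adjusted p = 0.219 and 0.190, edgeR).

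Beyond Peg12, the nearest tested gene was Chrna7, a subunit of the acetylcholine receptor, with 15 to 47 counts per library and a log2 fold change of -0.54 (SE 0.23, adjusted p = 0.217, edgeR). Klf13, a zinc-finger transcription factor, had 0.39, Mtmr10, a myotubularin-related protein, had -0.27, Apba2, an adaptor of synaptic vesicles, had 0.74 and Aldh1a3, a retinoic acid synthesising enzyme, had -0.41. Of these, Mtmr10, Apba2 and Aldh1a3 had groups that did not overlap, with adjusted p values of 0.0730, 0.104 and 0.0619 (edgeR) and, for Mtmr10 and Aldh1a3, 0.0222 and 0.00911 with DESeq2. On the other side of the region, Atp10a, a phospholipid flippase next to Ube3a, had a log2 fold change of 0.12, and the giant ligase gene Herc2 had 0.05. Cyfip1, Tubgcp5, Nipa1 and Nipa2 had 0.13, 0.04, -0.13 and 0.01. The other tested genes beyond Peg12 were Fan1, Mphosph10, Mcee, Fam189a1, Tjp1, Ndnl2, Chsy1, Lrrk1 and Mef2a. Their log2 fold changes ran from -0.13 for Chsy1 to 0.49 for Fam189a1, which had 9 to 31 counts per library. Below the filter were Ipw and Snord116, at 0 counts in every library, and B230209E15Rik, Snord64, Gabra5, Gabrg3, Oca2, Otud7a and Trpm1, at no more than 14 counts in any.

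**Figure D5:**
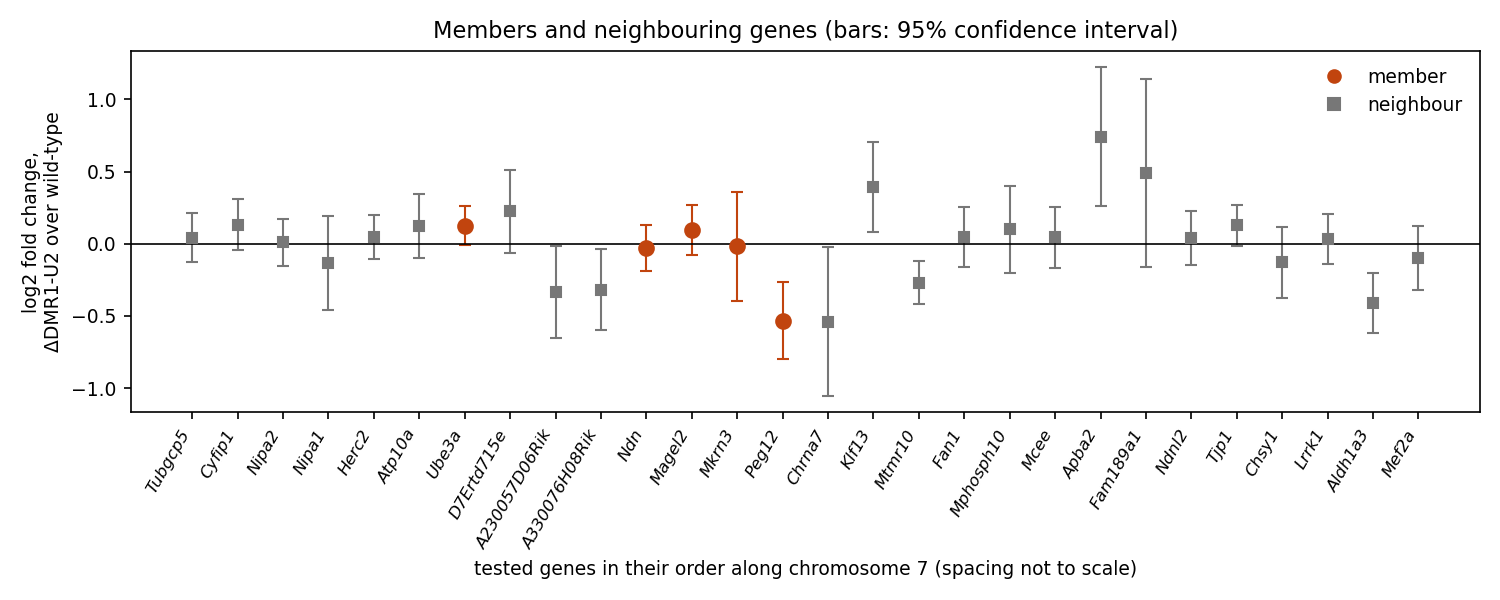
Log2 fold change, ΔDMR1-U2 over wild-type, of the 5 tested members (orange circles) and 23 tested neighbours (grey squares) in their order along the chromosome, with 95% confidence intervals. Peg12 lies at -0.53 beside Mkrn3, Magel2 and Ndn, whose intervals cover 0. On its other side Chrna7 lies at -0.54, with an interval of -1.05 to -0.03. The intervals of A230057D06Rik, A330076H08Rik, Mtmr10 and Aldh1a3, all lower, and of Klf13 and Apba2, both higher, also leave out 0.

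Genes that work with the members were taken from lists of their families and partners. In the FRAT, GSK3 and beta-catenin list, edgeR called 0 of 24 tested genes and DESeq2 1 (Lgr5, higher), against 2.78% of all its genes. The median log2 fold change of the list was 0.02. Frat1 and Frat2, the relatives of Peg12, were at 5.50 ± 0.808 and 5.86 ± 1.10 CPM in mutant muscle against 5.26 ± 1.09 and 6.08 ± 0.598 CPM in wild-type (n = 4 each, SD). Their log2 fold changes of 0.06 and -0.05 had intervals of -0.31 to 0.42 and -0.37 to 0.27 (edgeR). The most abundant members of the list, Ctnnb1, which encodes beta-catenin, and Csnk1a1, the kinase that primes it for breakdown, had -0.12 and -0.01. Here 2 genes were higher and 0 lower at an unadjusted p under 0.05, against 21.3% of all tested genes in either direction.

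In the list of MAGE family genes and Magel2 partners, edgeR called 0 of 18 tested genes and DESeq2 1 (D6Wsu116e, higher), against 2.78% of all its genes. The median log2 fold change of the list was -0.00076. Its most abundant genes, Maged2 and Maged1, were at 508 ± 59.1 and 406 ± 37.6 CPM in mutant muscle against 615 ± 44.9 and 473 ± 30.3 CPM in wild-type (n = 4 each, SD). Their log2 fold changes of -0.27 and -0.22 had adjusted p values of 0.138 and 0.165 (edgeR). In the list of necdin partners, 0 of 14 were called by edgeR or DESeq2, and Hnrnpu, a nuclear matrix protein, and Ptma, prothymosin alpha, had -0.03 and -0.15. In the list of splicing particle proteins, 0 of 16 were called by either, with a median of -0.11, and Snrnp70 and Snrpb had -0.01 and -0.12. The makorins Mkrn1 and Mkrn2, of which 0 of 2 were called by either, had 0.14 and -0.01. At an unadjusted p under 0.05, these lists had 1, 1, 0 and 0 genes higher and 2, 1, 3 and 0 lower, in the order given. Of all tested genes, 21.3% passed this in either direction.

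In the list of HECT ligases, conjugating enzymes and targets of Ube3a, edgeR called 1 of 32 tested, lower in the mutant, against 0.617% of all genes. At an unadjusted p under 0.05, 3 were higher and 4 lower, against 21.3% of all genes in either direction. DESeq2 called 1 higher and 2 lower (Aldh1a2, Aldh1a3 and Esr1), against 2.78% and 3.23% of all its genes. The gene called by edgeR was Esr1, the oestrogen receptor, with a log2 fold change of -0.82 (SE 0.11, adjusted p = 0.0178, edgeR), from 6.92 ± 0.592 to 3.91 ± 0.222 CPM (SD, n = 4 each). Its call was lost without mutant library 3 or wild-type library 1A, 2 or 3, with adjusted p values of up to 0.0774, and without mutant libraries 1A and 1B together (0.0754, edgeR). In the list of factors that keep imprints and silence such domains, edgeR called 0 of 21. At an unadjusted p under 0.05, 1 was higher and 4 were lower, against 21.3% of all genes in either direction. DESeq2 called 3 lower (Dnmt1, Tet1 and Uhrf1), against 3.23% of all its genes. Smchd1, a chromatin protein known to silence genes of this region, was at 90.8 ± 5.67 CPM in the mutant against 93.4 ± 3.18 CPM in wild-type, with an interval of its log2 fold change of -0.18 to 0.10. The heterochromatin protein gene Cbx5 had -0.18 and the demethylation enzyme gene Tet2 had 0.06. Among 56 tested imprinted genes elsewhere, edgeR called 1 higher and 2 lower, against 0.512% and 0.617% of all genes, and DESeq2 3 higher and 2 lower, against 2.78% and 3.23%. At an unadjusted p under 0.05, 9 were higher and 2 lower, against 21.3% of all genes in either direction. Groups did not overlap for 10 of 56, against 12.8% of all genes. The median log2 fold change was 0.01. Zim1 had 0.47, Ddc, the enzyme that makes dopamine and serotonin, had -0.48 (adjusted p = 0.0344 and 0.0457, edgeR), and Igf2as, at the deleted locus, had -3.42. The call of Zim1 was lost without mutant library 3 or any 1 wild-type library (adjusted p up to 0.111), and without mutant libraries 1A and 1B together (0.0989). That of Ddc was lost without mutant library 1B or 3 or any 1 wild-type library (adjusted p up to 0.145), without 1A and 1B together (0.0972), and with total counts in place of scaled ones (0.0568, edgeR).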

How the data were processed

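RNA from 4 ΔDMR1-U2 and 4 wild-type muscle samples was counted per gene. The deposited table holds raw counts made by the authors. It also holds the authors' mean normalised counts (a signal scaled by size factors), a fold change per gene (a ratio, wild-type divided by mutant), its log2, and a p-value and adjusted p per gene, per the file headers. Per the submitters' processing notes, the build was mm10 and the tools listed, with no role given, included TopHat2 2.0.9, Bowtie2 2.1.0 and HTSeq 0.5.4p3. No source used here names the annotation or strand setting.

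Counts were filtered with filterByExpr (minimum count 10), scaled by TMM and tested over all 15241 remaining genes with edgeR 4.0.16 in R 4.3.3. DESeq2 1.42.0 was an alternative. CPM were taken with the scaled library sizes, and log2 CPM with a prior count of 2. Exon lengths, positions and overlaps came from GENCODE vM21. The members and lists were chosen with earlier results of these data known. Named besides the members were the 2 genes most alike to each tested member, the tested neighbours, and from each list up to 4 called genes or, with none called, the 2 most abundant. Frat1, Frat2 and Smchd1 were chosen after their values were seen, as was the test of ratios. In counts simulated for 15156 genes of these groups, 68% of 1.5-fold changes were found, and 88% at 2-fold. Each gene was drawn on its own, without effects shared by the genes of a library, so these shares do not give the rate in the real libraries. The planned share of Snrpn in Snrpn and Snurf counts, and the sum of both rows, gave no value because both were at 0. The values of 1 tested neighbour and the name of 1 marker gene are not reported here.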

Additional observations from a re-analysis of the deposited data

Results flagged for a closer look

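Some values stood apart from the other 3 of their group, with a gap to the nearest, as a share of the range, above Dixon's critical value for 4. Among 78 groups of 4 values (members, tested neighbours and ratios of members), 7 did so, or 8.97%, where chance gives about 1 in 20. Wild-type library 1A had a log2 ratio of Ndn to Ube3a of 0.79, and ΔDMR1-U2 library 2 a log2 ratio of Mkrn3 to Ube3a of -5.00. Among the neighbours, Atp10a was at 32.0 CPM in wild-type library 3, Fan1 at 12.2 CPM in ΔDMR1-U2 library 2 and 15.1 CPM in wild-type library 2, Mcee at 9.87 CPM in ΔDMR1-U2 library 1B and Mef2a at 124 CPM in wild-type library 2. None was a CPM value of a member.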

How the results depend on the processing

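Peg12 was below wild-type in all 17 alternatives, with log2 fold changes of -0.62 to -0.40, and those of Magel2 and Ube3a stayed above 0. Of the members, 1 was called, Peg12, with DESeq2 (log2 fold change -0.54), without the filter on low counts (-0.54) and without ΔDMR1-U2 replicate 2, and 0 in the other 14. When 1 library was left out, Peg12 ran from -0.62 to -0.45, with 0 to 1 members called, and the genes called over all genes ran from 7 (without mutant 3 or wild-type 1A) through 10, 20 and 22 (without wild-type 2, 1B and 3) to 631 (without mutant 2). They numbered 172 as reported (78 higher and 94 lower), 216 with total counts (139 and 77), 930 with DESeq2 and 16 without both ΔDMR1-U2 libraries 1A and 1B. Libraries with the same name did not deviate together (r of -0.22 to -0.08 over 4 pairs, and 0 of 8 libraries correlated best with their own name). With a replicate block of 4 or 3 levels, 13 or 9 genes were called, and Peg12 had adjusted p values of 0.139 or 0.123. The blocks also ended the calls of Esr1 (0.0764 or 0.0682), Zim1 (0.107 or 0.0926), Ddc (0.0775 or 0.103) and Cidea (0.0632 or 0.0783). Signs of small, uncalled changes turned, with the cause not tested. With total counts these were Ndn 0.0211, Mkrn3 0.0293, Icmt 0.018, 2310046O06Rik 0.0196, Rpp38 0.0315, Hnrnpu 0.0191, Snrnp70 0.0422, Mkrn2 0.0402, Csnk1a1 0.0392, Frat2 0.00134, Smchd1 0.00958. With upper-quartile scaling it was Snrnp70 0.000785, and with a minimum count of 50 Snrnp70 0.00275, Mkrn2 0.000118, Csnk1a1 0.00038. Without both ΔDMR1-U2 libraries 1A and 1B they were Ndn 0.0173, Mkrn3 0.0978, Tubgcp5 -0.00989, Fan1 -0.0187, Mcee -0.0114, 2310046O06Rik 0.055, Rpp38 0.141, Mkrn2 0.0151, Mkrn1 -0.0537, Csnk1a1 0.0314. When 1 library was left out, the ranges that crossed 0 were Ndn -0.0664 to 0.0279, Mkrn3 -0.139 to 0.119, Nipa2 -0.0279 to 0.0494, Tubgcp5 -0.00176 to 0.0785, Mcee -0.00684 to 0.0812, Lrrk1 -0.0124 to 0.0749, 2310046O06Rik -0.0935 to 0.0489, Ahi1 -0.036 to 0.0621, Rpp38 -0.154 to 0.0846, Hnrnpu -0.0647 to 0.00996, Snrnp70 -0.0354 to 0.014, Mkrn2 -0.0451 to 0.0219, Mkrn1 -0.00913 to 0.322, Csnk1a1 -0.041 to 0.0258, Frat1 -0.0156 to 0.214, Frat2 -0.187 to 0.024, Smchd1 -0.0621 to 0.00368. The level per length of Ndn and Ube3a moved with the length used, to 130 and 15.6 CPM per kb. Low counts limit Mkrn3, with 63 to 136 per library.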

Other observations

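Wild-type library 1A and ΔDMR1-U2 library 3 had the highest levels of Ndn, at 242 and 223 CPM, and of Magel2, at 51.6 and 56.3 CPM. The same libraries had the lowest summed level of cartilage and bone markers, at 59.7 and 43.5 CPM against 362 to 1284 CPM in the other 6. This was noticed after the values were seen, and the part of these tissues in the levels of Ndn and Magel2 was not tested. Peg12 was highest of all 8 in wild-type library 1A, at 18.2 CPM, and second of the 4 mutant libraries in ΔDMR1-U2 library 3, at 11.2 CPM.

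Neuron markers were low, with a summed level of 15.6 to 21.7 CPM in ΔDMR1-U2 and 17.3 to 22.5 CPM in wild-type, over 13 genes of which 7 passed the filter. Gap43, found in growing axons, made up most of it, at 8.12 to 13.3 CPM, and Chat, the enzyme that makes acetylcholine, was at 0 counts in every library.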
